A study of Mus musculus with 194 samples.

Results

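The regions described here are 371 windows of 50 kb, read in cortex of mice that express Cre in neurons. They held a smaller share of recorded insertions when the calling card construct was labelled with the transcription factor SP1 and the animals with P28. A window of mouse build GRCm38, chromosomes 1 to 19, was taken when the 6 Syn1Cre cortices together held at least 150 insertions in it and their per-million insertions (IPM, insertions scaled by the total on those chromosomes) were at least 3 times those of the 4 SP1 P28 cortices together. Of 47313 windows with any insertion, 10804 reached 150 Syn1Cre insertions, and the 371 members are 3.43% of those. The members were chosen by the Syn1Cre and SP1 P28 values themselves, so that contrast is described below without a test, and tests were run only on the SP1 P10 animals against groups that the rule did not use.

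In calling cards a transposase, alone or joined to a transcription factor, places a reporter transposon in the genome close to where it sits, and each recorded insertion marks 1 such event at a TTAA sequence. A piggyBac transposase without a partner is known to favour active enhancers. SP1 is a zinc finger protein that binds GC boxes, which are common in the promoters of widely expressed genes, and a fusion with SP1 is meant to direct insertions to the sites that SP1 binds. Enhancers of neuronal genes often lie far from the gene they act on, inside very long introns or in the gene-poor stretches between genes.

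All animals received adeno-associated virus on postnatal day 0 to 1, and insertions were read from RNA of cortex unless stated. Syn1Cre mice express Cre in neurons under the synapsin 1 promoter (6 animals), and Syn1CreNeg (6 animals) are their Cre-negative group. GFAPCre mice express Cre under the promoter of the astrocyte gene Gfap (6 animals, with 6 GFAPCreNeg), and C57bl6J mice (2 animals) had viruses that need no Cre. The SP1 groups are Syn1Cre animals whose labels add SP1 and P10 (3 animals) or P28 (4 animals), read here as postnatal day 10 and 28. Every SP1 P10 animal shared sequencing pools with SP1 P28 animals. The labels give no age at collection for the other groups, name no transposase and do not describe the SP1 construct, so SP1 and age cannot be told apart in any comparison with the SP1 animals. Further groups were Rbp4Cre (4 animals, whole forebrain, ribosome-bound RNA of deep-layer projection neurons), Frontflip GFAPCre and its Cre-negative group (3 animals each), BrokenHeart (3 animals, insertions read from DNA) and the N2a neuroblastoma line (1 pooled table).

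Syn1Cre held 5447232 insertions on chromosomes 1 to 19, SP1 P28 1058320, of which animal 4 gave 53.3%, and SP1 P10 265842. Summed over the spans of 11 neuron marker genes, IPM ranged from 2817 to 3136 in Syn1Cre, from 2221 to 2533 in SP1 P28, from 1710 to 1964 in SP1 P10 and from 2695 to 3220 in GFAPCre. Over 10 astrocyte marker genes the ranges were 491 to 1546, 771 to 1667, 612 to 798 and 577 to 1154 in the same order. The neuron list was thus lower in every SP1 animal than in every Syn1Cre animal, and its part in the results below was not tested. Insertions over a gene are not its RNA level, and in bulk cortex fewer cells of a type and fewer insertions per cell cannot be told apart.

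Most members were far from the ends of protein-coding genes. Only 51 of 371 (13.7%) held an end of a protein-coding gene, against 45.8% of the 10804 windows with at least 150 Syn1Cre insertions and 36.9% of all windows. Another 196 members (52.8%) lay inside a gene without reaching its end, and 124 (33.4%) lay between genes, against 39.7% and 14.4% of the windows with at least 150 insertions. The median distance from a member to the nearest end of a protein-coding gene was 118 kb, against 6.29 kb for windows with at least 150 insertions and 23.8 kb for all windows. Over 100 kb from any end were 198 members (53.4%), against 22.2% of the windows with at least 150 insertions. Beyond 500 kb were 44 members (11.9%), against 2.48%. Distances used RefSeq gene spans. With non-coding genes and predicted genes counted, the median distance of members was 13.8 kb. It was then 0.0 kb both for windows with at least 150 insertions and for all windows.

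**Figure D1:**
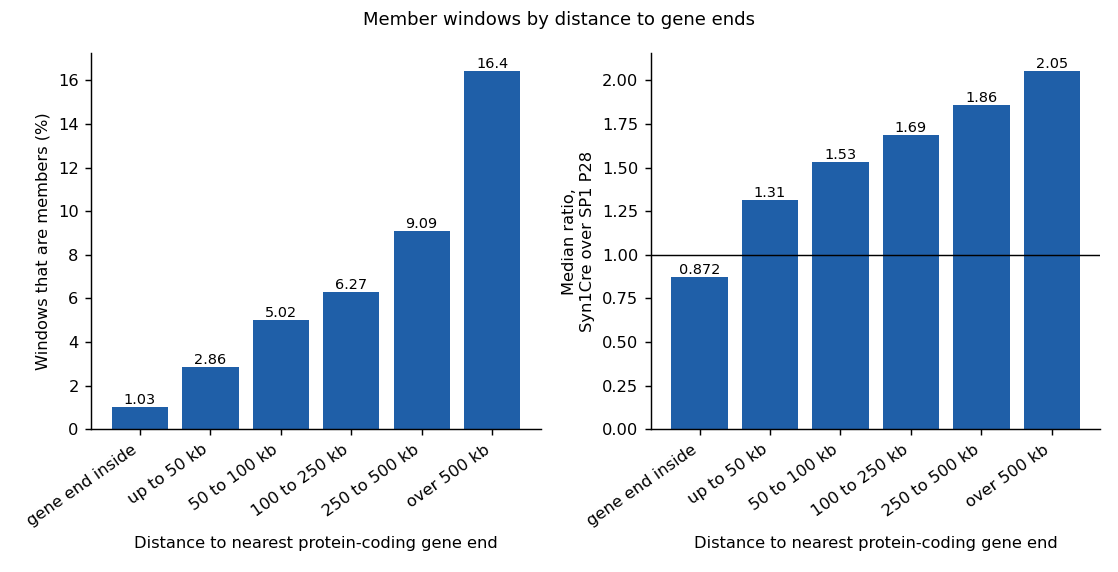
Windows with at least 150 Syn1Cre insertions, in classes of distance to the nearest protein-coding gene end. Left, bars give the percentage of windows that are members, from 1.03% where a gene end lies inside to 16.4% beyond 500 kb; right, bars give the median ratio of IPM, Syn1Cre over SP1 P28, from 0.872 to 2.05, and the line marks 1.

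The share of windows that were members rose with distance in each class, and so did the median ratio over all windows of the class. It was 1.03% where a gene end lay inside, 2.86% up to 50 kb, 5.02% from 50 to 100 kb, 6.27% from 100 to 250 kb, 9.09% from 250 to 500 kb and 16.4% beyond. The same order of classes held for both measures in the plot by distance. Members that overlapped a gene lay in long ones: the longest gene in such a window had a median length of 541 kb over members, against 162 kb over windows with at least 150 insertions, with a gene counted once for each window it overlaps.

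Members without neighbours were the rule: they formed 327 separate runs, of which 35 held more than 1 window (79 members). Chromosome 2 held the most, with 47, a count not scaled by its number of windows. A run of 4 at chr10:28400001-28600000 lay in Ptprk, a receptor tyrosine phosphatase, and a run of 3 at chr13:82850001-83000000 in the desert beside Mef2c.

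Few members held the promoter of a protein-coding gene. In the RefSeq promoter table for GRCm38.p6 (300 bases, 250 before to 50 after the start), 31 promoters of 29 genes lay in 27 of the 371 members. Of the 10804 windows with at least 150 Syn1Cre insertions, 3656 held a promoter. The 6 letters GGGCGG or their reverse complement CCGCCC, the core of a GC box, stood in 11 of them (35.5%). They stood in 58.0% of 6431 promoters in windows with at least 150 Syn1Cre insertions and in 47.0% of all 20085. The share in members rests on only 31 promoters, and its difference from the others was not tested. In windows of the same minimum where SP1 P28 was instead at least 3 times Syn1Cre, 66.3% of 721 promoters held one. A match is a description of these letters and not a binding site. Median GC content was 49.7% in the promoters of members and 60.3% in those of windows with at least 150 insertions.

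The 4 promoters below were chosen after their values were seen. Arhgap15 (chr2:43787105-43787404, plus strand) and Mgat4c (chr10:101681237-101681536, plus strand) had the most Syn1Cre insertions within 1 kb of their start among members and hold no GC box. Met (chr6:17463707-17464006, plus strand) and Zfp804a (chr2:82053408-82053707, plus strand) each hold 3. Each is printed 5′ to 3′ on its own strand from the RefSeq table, with GGGCGG and CCGCCC in capitals.
Arhgap15: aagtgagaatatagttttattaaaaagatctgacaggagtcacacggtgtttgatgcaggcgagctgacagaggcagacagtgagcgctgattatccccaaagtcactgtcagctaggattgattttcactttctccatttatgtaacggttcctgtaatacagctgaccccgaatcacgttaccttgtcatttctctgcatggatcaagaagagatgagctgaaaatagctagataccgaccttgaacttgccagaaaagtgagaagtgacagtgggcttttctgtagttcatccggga
Mgat4c: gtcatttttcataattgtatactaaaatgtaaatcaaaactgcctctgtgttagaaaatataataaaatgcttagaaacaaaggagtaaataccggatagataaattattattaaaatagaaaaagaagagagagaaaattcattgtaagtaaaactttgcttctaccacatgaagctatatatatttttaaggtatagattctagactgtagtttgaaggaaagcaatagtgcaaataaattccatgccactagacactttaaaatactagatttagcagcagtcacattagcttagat
Met: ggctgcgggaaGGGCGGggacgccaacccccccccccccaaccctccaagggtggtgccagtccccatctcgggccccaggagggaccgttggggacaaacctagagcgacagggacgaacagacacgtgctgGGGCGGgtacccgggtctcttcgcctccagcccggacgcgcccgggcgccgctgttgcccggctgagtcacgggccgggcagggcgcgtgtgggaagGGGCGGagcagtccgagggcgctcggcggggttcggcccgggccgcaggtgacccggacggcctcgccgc
Zfp804a: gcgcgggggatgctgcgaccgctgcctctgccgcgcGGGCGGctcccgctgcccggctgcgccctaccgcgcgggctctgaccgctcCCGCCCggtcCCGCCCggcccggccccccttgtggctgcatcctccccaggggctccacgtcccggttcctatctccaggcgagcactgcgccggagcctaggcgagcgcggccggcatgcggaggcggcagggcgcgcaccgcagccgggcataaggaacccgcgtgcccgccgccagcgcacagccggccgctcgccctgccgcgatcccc

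Around the Arhgap15 start, a gene for a GTPase-activating protein of Rac, 224 Syn1Cre insertions lay within 1 kb (41.1 IPM), 157 GFAPCre (30.9 IPM), 11 SP1 P28 (10.4 IPM) and 1 SP1 P10 (3.76 IPM). Around Mgat4c, a glycosyltransferase gene whose promoter above is only 27.7% G and C, the counts were 197, 162, 14 and 6 in the same order. The GC-rich promoter of Met, the receptor of hepatocyte growth factor, had 20, 17, 2 and 0. That of Zfp804a, a zinc finger gene, had 25, 15, 6 and 4, which is 4.59 IPM in Syn1Cre and 5.67 in SP1 P28. Near the Arhgap15, Mgat4c and Met starts IPM was lower in both SP1 groups than in Syn1Cre, and near the Zfp804a start it was not. The SP1 counts near Met and Zfp804a, which both hold GC boxes, are few. Whether these values go with GC boxes was not tested.

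By the rule, Syn1Cre exceeded SP1 P28 by a median of 3.50 times over the members, up to 11.1 times, while the median over windows with at least 150 insertions was 1.21. Members held 150 to 3117 Syn1Cre insertions (median 220) and 3 to 169 SP1 P28 insertions (median 12), so most of their SP1 P28 values rest on few insertions. Every SP1 P28 animal lay below every Syn1Cre animal in 333 members. That is 89.8%, beside 23.4% of the windows with at least 150 insertions, and follows in part from the choice of members. Just inside the ratio of 3 were windows in Nkain2 (3.004), Xkr4 and Pcdh15 (3.011 each), and just outside were windows in Celf2 (2.998) and Scn9a (2.995) and 1 near Cwc27 (2.992). Without SP1 P28 animal 4 the rule would take 1280 windows, among them 332 of the 371, and without Syn1Cre animal 4 or 6 it would take 210 or 247.

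**Figure D2:**
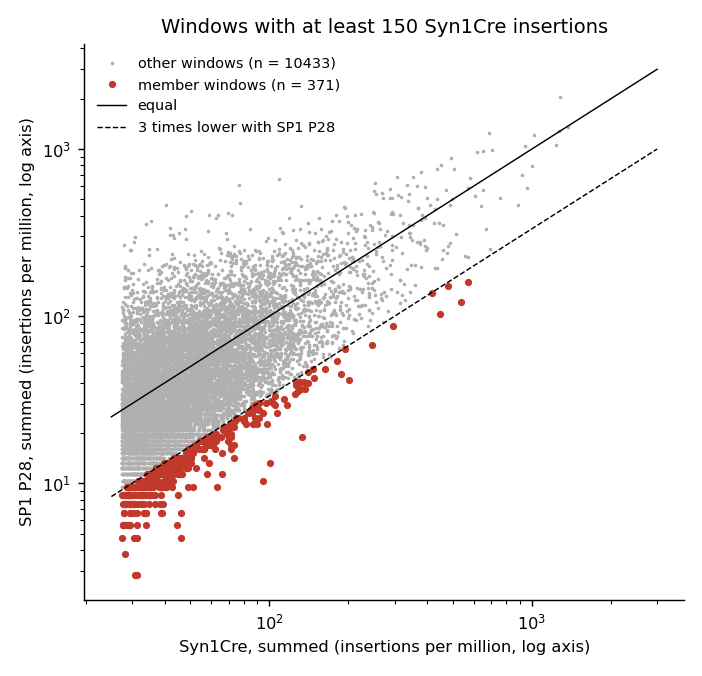
IPM in SP1 P28 (summed, log axis) against Syn1Cre (summed, log axis) for the 10804 windows with at least 150 Syn1Cre insertions, 1 point per window. Red points are the 371 members, which by the rule lie at or under the dashed line of 3 times lower; grey points are the other windows, and the solid line marks equal values.

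Of all insertions on chromosomes 1 to 19, 2.12% ± 0.128 (SD, n = 6) lay in the members in Syn1Cre and 0.540% ± 0.0951 (SD, n = 4) in SP1 P28, the contrast the rule used. In groups it did not use, the share was 0.665% ± 0.0474 (SD, n = 3) in SP1 P10, 2.00% ± 0.160 (SD, n = 6) in GFAPCre and 2.41% ± 0.00778 (SD, n = 2) in C57bl6J. It was 2.56% ± 0.154 (SD, n = 4) in Rbp4Cre and 1.54% ± 0.236 (SD, n = 3) in BrokenHeart, which was read from DNA. Cre-negative animals had 1.68% ± 0.241 (GFAPCreNeg, SD, n = 6) and 1.49% ± 0.114 (Syn1CreNeg, SD, n = 6). The 3 SP1 P10 animals, at 0.611% to 0.701%, lay below every animal of these groups. Frontflip GFAPCre had 1.64% ± 0.177 (SD, n = 3), its Cre-negative group, with 2341 to 9601 insertions per animal, 0.700% ± 0.240 (SD, n = 3), and the N2a line 0.568%.

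**Figure D3:**
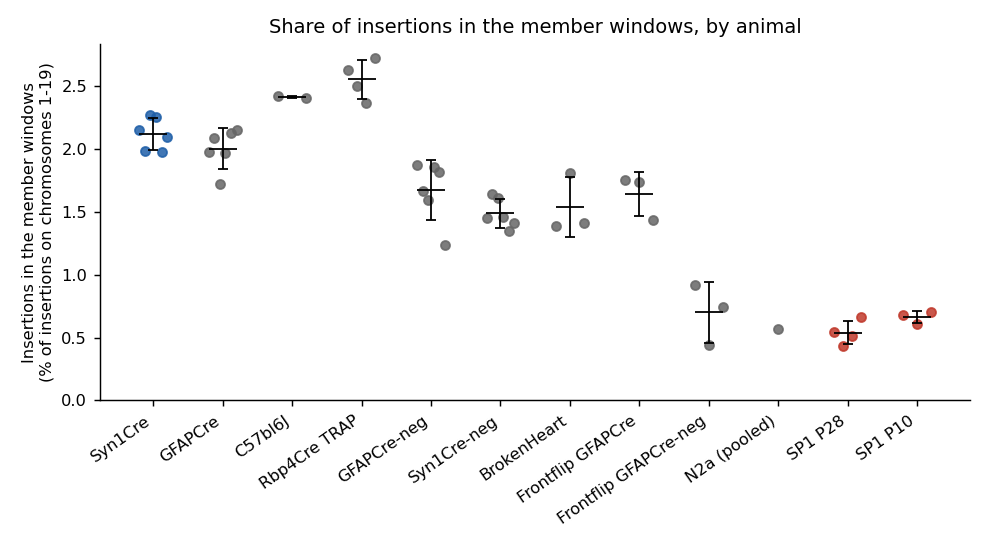
Percentage of each animal's insertions on chromosomes 1 to 19 that lay in the 371 member windows, 1 point per animal, with the group mean and SD in black (N2a is 1 pooled table, without SD). Syn1Cre and SP1 P28 chose the windows; the 3 SP1 P10 animals, not used to choose them, lie between 0.611% and 0.701%, below every Syn1Cre, GFAPCre, C57bl6J and Rbp4Cre animal.

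Window by window, the SP1 P10 animals gave few insertions. They held none in 21 members, 1 to 3 in 174 and more than 3 in 176, with a median of 3 and a maximum of 137. A count of 0 over the group was set to a floor of 3 insertions, which is 11.3 IPM. Folds given below as "at least" use this floor and not the 95% counting interval given for other counts. The median level over members was 40.4 IPM in Syn1Cre, 40.0 in GFAPCre, 43.4 in C57bl6J and 47.5 in Rbp4Cre, and 11.3 in both SP1 groups. In Syn1CreNeg it was 29.6, in GFAPCreNeg 33.8 and in BrokenHeart 30.8. The N2a line had 2.53 and no insertion in 97 members. Over windows with at least 150 insertions the medians were 44.4 in Syn1Cre, 45.1 in GFAPCre, 42.5 in C57bl6J and 41.6 in Rbp4Cre. There SP1 P28 had 41.6, SP1 P10 33.85, Syn1CreNeg 41.7, GFAPCreNeg 44.2, BrokenHeart 35.9 and N2a 24.0. Syn1Cre exceeded SP1 P10 in 369 of 371 members, and every SP1 P10 animal lay below every Syn1Cre animal in 266 (71.7%), beside 30.7% of the windows with at least 150 insertions. Members were chosen for high Syn1Cre values, so these counts too follow in part from the choice and support nothing.

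Against GFAPCre, 211 of the 369 members tested were lower in SP1 P10 and 1 was higher (edgeR quasi-likelihood test, Benjamini-Hochberg adjusted p under 0.05). Of all 20750 windows tested, 18.1% were lower and 14.1% higher (32.2% in all); of those with at least 150 Syn1Cre insertions 26.5% were lower, and of those also over 100 kb from a gene end 49.2%, against 57.2% of members. The median log2 difference, SP1 P10 minus GFAPCre, was -1.77 over the members (-1.69 with the 21 windows at 0 set to their bound), -0.44 over all windows tested and -1.28 over the far windows. Every SP1 P10 animal lay below every GFAPCre animal in 253 members (68.2%), beside 32.2% of windows with at least 150 insertions, and above all of them in 2. The 2 members that did not pass the low-count filter lay in Hs3st4, a heparan sulfate sulfotransferase gene, and beside Maf. Windows without an SP1 P10 insertion passed this filter only through GFAPCre values, and such entry favours a lower call. The SP1 P10 animals shared no sequencing pool with GFAPCre, so pool, age, Cre line and SP1 cannot be told apart. With SP1 P28, whose values chose the members, they did share pools, so a pool effect common to both SP1 groups cannot be told apart.

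By gene context, 127 of 195 members tested inside a gene were lower (median log2 difference -1.95), 54 of 123 between genes (-1.55) and 30 of 51 with a gene end inside (-1.64). Among windows with at least 150 insertions the same classes gave 45.0%, 19.5% and 12.6% lower, with medians of -1.17, -0.52 and 0.01. Members with a gene end inside thus had a median near that of the other members, while the median of all windows of that class was near 0.

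The comparison with Syn1CreNeg could test only the 20 members that passed its low-count filter, most of them only through high Syn1CreNeg values. Such entry favours a lower call, so the count of these members does not stand for the 371 and supports nothing. Of these 20 members, 16 were lower in SP1 P10 and 1 higher, which is 80.0% lower. Of all 2633 windows tested, 39.9% were lower and 38.1% higher (78.0% in all). The share lower was 43.3% of windows with at least 150 insertions and 72.5% of those also over 100 kb from a gene end. Against C57bl6J, 39 members passed the filter, most of them only through the high values of the 2 C57bl6J animals. Such entry favours a lower call, so the count of these members does not stand for the 371 either and supports nothing. All 39 were lower, where 38.0% of 2137 windows were lower and 36.0% higher (73.9% in all). Of windows with at least 150 insertions 43.6% were lower there, and of those also over 100 kb from a gene end 86.1%. With scaling by total insertions in place of TMM, the median over all windows in that comparison moved from 0.03 to 1.27 and the members' from -3.36 to -2.13, and 37 of the 39 stayed called. The split over all windows then changed from 811 lower and 769 higher to 422 and 1399. Below, C57bl6J is given by its IPM only. Without the filter, 115 of 371 members were lower against Syn1CreNeg and 288 of 371 against C57bl6J.

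**Figure D4:**
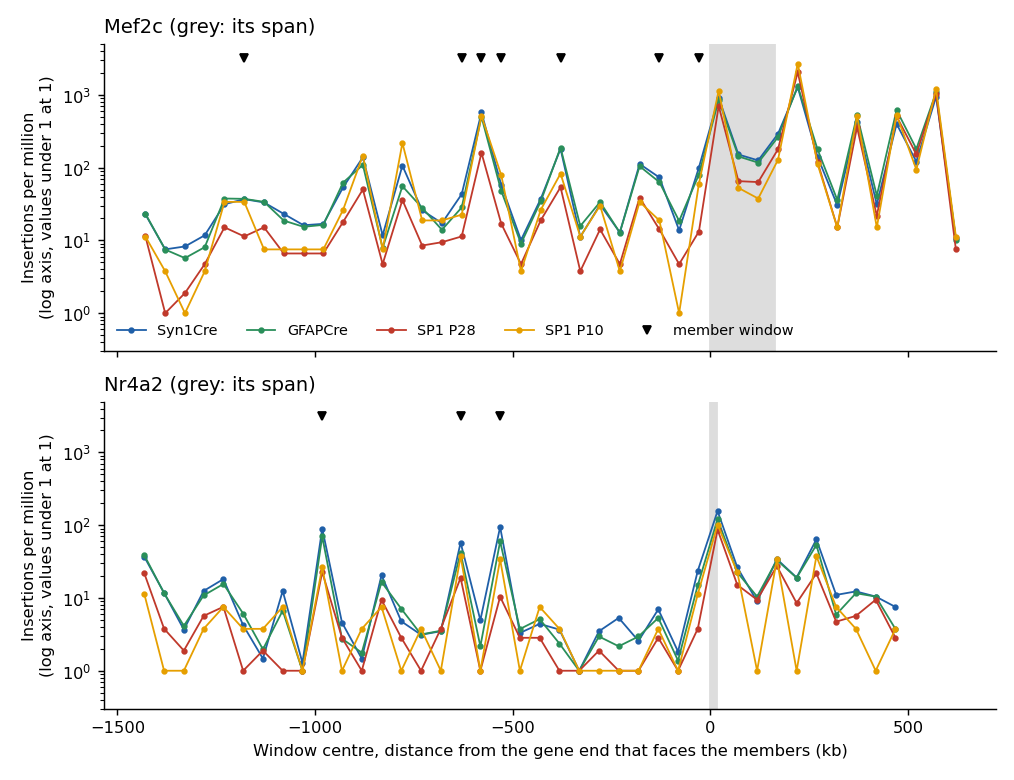
IPM (summed by group, log axis, values under 1 drawn at 1) in 50 kb windows beside Mef2c and Nr4a2, against the distance of the window centre from the gene end that faces the members, in kb. The grey band is the gene and triangles mark the 7 and 3 members; at the Mef2c peak 554 kb away SP1 P10 (515 IPM) lies near GFAPCre and SP1 P28 (160) under both.

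Mef2c, an activity-dependent regulator of cortical neurons, had 7 members within 1500 kb, all on its lower-coordinate side, from 4.02 to 1154 kb away. At chr13:82900001-82950000, the member with the most Syn1Cre insertions, Syn1Cre animals held 493 to 645 IPM and SP1 P28 animals 141, 160, 205 and 154. SP1 P10 animals held 494, 581 and 472, within the range of GFAPCre (445 to 582) and above every SP1 P28 animal. The log2 difference from GFAPCre was -0.02 ± 0.22 (edgeR, adjusted p = 0.946). From Syn1CreNeg, at 356 ± 22.7 (SD, n = 6), it was 0.56 ± 0.18 (edgeR, adjusted p = 0.00431), a call lost without SP1 P10 animal 1 (0.43) or Syn1CreNeg animal 2 (0.39) or 5 (0.31), and without the low-count filter (0.27, adjusted p = 0.538 by edgeR).

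At 2 further Mef2c members each SP1 P10 animal also lay above each SP1 P28 animal, whose values the rule chose to be low. At chr13:82950001-83000000 SP1 P10 animals held 118, 57 and 64.4 IPM and SP1 P28 animals 35.3, 0, 6.22 and 15.9, with 39.1 to 57.2 in GFAPCre (0.70 ± 0.35, edgeR, adjusted p = 0.122). At chr13:83450001-83500000, 4.02 kb from Mef2c and 7.59 times lower in SP1 P28 than in Syn1Cre, SP1 P28 animals held 8.83, 0, 12.4 and 17.7 IPM. SP1 P10 animals held 58.9, 57 and 64.4 there, below the GFAPCre animals at 74.2 to 99.0 and above all of SP1 P28. That difference from GFAPCre did not pass (-0.48 ± 0.34, edgeR, adjusted p = 0.308), nor did the one at chr13:82850001-82900000 (-0.37 ± 0.60, adjusted p = 0.664).

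Of the 7 Mef2c members 2 were lower in SP1 P10 than in GFAPCre. At chr13:83100001-83150000 SP1 P10 animals held 94.2, 114 and 42.9 IPM against 169 to 207 (-1.25 ± 0.30, edgeR, adjusted p = 0.00143). At chr13:83350001-83400000, named after its values were seen, the difference was -1.77 (edgeR, adjusted p = 0.00602). Every SP1 P10 animal lay above every SP1 P28 animal in 17 members (4.58%), beside 4.99% of windows with at least 150 insertions, and below in 10 (2.70%), beside 9.40%.

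**Figure D5:**
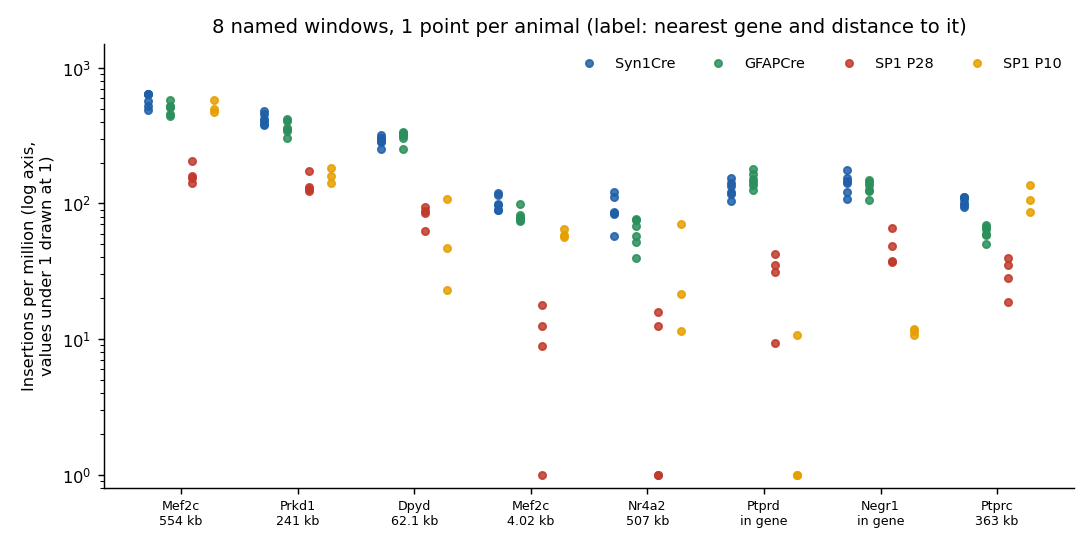
IPM by animal (log axis, values under 1 drawn at 1) in 8 named members, labelled by nearest gene, in the order Syn1Cre, GFAPCre, SP1 P28, SP1 P10. In the windows near Prkd1 and Dpyd and in Ptprd and Negr1 both SP1 groups lie under GFAPCre; 554 kb from Mef2c the SP1 P10 animals (472 to 581 IPM) lie within the GFAPCre range (445 to 582), and near Ptprc (85.9 to 137) above it.

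Over the list of 87 forebrain and neuronal regulators with distal enhancers, 18 members (4.85%) contained or lay nearest to one of 7 genes, against 3.17% of windows with at least 150 insertions and 2.05% of all windows. Among these, Mef2c was nearest for 6, Foxp2 was overlapped by 3, Nr4a2 and Nr4a3 had 2 each, and Maf had 1. In the test against GFAPCre 9 of 17 were lower (median -1.25), beside 27.9% of the list's windows with at least 150 insertions. Of a list of 28 astroglial genes, some of them also in the list above, none had a member. Only 101 windows with at least 150 insertions (0.935%) belonged to them. With members at 3.43% of all such windows, few would fall there, so the 0 shows little.

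The largest ratio of all, 11.1, was in Foxp2, a transcription factor of deep-layer neurons, at chr6:15300001-15350000. Its 171 Syn1Cre insertions spread over 23.1 to 43.5 IPM, and its 3 SP1 P28 insertions gave 0, 9.39, 6.22 and 1.77. SP1 P10 also had 3 insertions (23.5, 11.4 and 0 IPM), and GFAPCre exceeded it 3.21-fold (95% counting interval 1.10 to 15.6, adjusted p = 0.0769 by edgeR). That difference passed without the low-count filter (-1.96, adjusted p = 0.0245 by edgeR). A second Foxp2 window, chr6:15000001-15050000, had 2 SP1 P10 insertions and a GFAPCre level 5.49-fold higher (1.52 to 45.4, adjusted p = 0.0067 by edgeR), a call lost without SP1 P10 animal 1.

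Near Nr4a2, an orphan nuclear receptor gene, the window chr2:56550001-56600000 (507 kb away) had a ratio of 9.10. Syn1Cre animals held 57.8 to 122 IPM, SP1 P28 animals 0, 0, 12.4 and 15.9, and SP1 P10 animals 70.6, 11.4 and 21.5. GFAPCre animals held 39.3 to 76.6, so that SP1 P10 animal 1 lay inside their range, and the difference did not pass (-0.88 ± 0.47, edgeR, adjusted p = 0.145) but did without that animal (-1.91) and without the low-count filter (-1.19). Rbp4Cre held only 4.48 ± 8.95 (SD, n = 4). At chr4:48050001-48100000, which holds an end of the related receptor gene Nr4a3, SP1 P10 had no insertion and GFAPCre (31.7 to 51.1 IPM) was at least 3.71-fold higher (adjusted p = 0.00019 by edgeR).

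The Maf member, chr8:115650001-115700000, 3.25 kb from this transcription factor gene of cortical interneurons, had a different distribution across groups. Syn1Cre animals held 23.1 to 52.7 IPM and C57bl6J animals 36.4 and 27.2. GFAPCre animals held 2.12 to 8.61, Syn1CreNeg 3.48 ± 4.01 (SD, n = 6) and Rbp4Cre 4.48 ± 8.95. SP1 P10 animals held 11.8, 34.2 and 32.2, above all GFAPCre animals, and SP1 P28 animals 8.83, 18.8, 18.7 and 10.6.

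Long genes of cell adhesion and the synapse made up the larger list. Of 96 such genes, 32 had 68 members in or nearest to them (18.3%), against 7.16% of windows with at least 150 insertions. In the test against GFAPCre 50 of 68 were lower and none higher (median -2.19), beside 63.7% of the list's 772 tested windows with at least 150 insertions (median -1.59). Cntnap2, Cdh6, Cdh12, Opcml and Ptprd had 4 members each. Genes outside the list with several members were Celf2, an RNA-binding protein (8 members in or nearest), and Dlg2, a postsynaptic scaffold, Arhgap15 and Ptprk (6 each).

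All 4 members in Ptprd, a synaptic receptor phosphatase, were lower in SP1 P10 than in GFAPCre, with 9 SP1 P10 insertions among them. So were 39 of the 44 windows in Ptprd with at least 150 Syn1Cre insertions, members included (88.6%, median -2.56). The lower level was thus not particular to the members. In chr4:77650001-77700000, 512 kb inside its nearest end, Syn1Cre animals held 104 to 155 IPM and SP1 P28 animals 35.3, 9.39, 31.1 and 42.5. SP1 P10 had 1 insertion, in animal 3, and GFAPCre (125 to 180) exceeded it 40.0-fold (counting interval 7.19 to 1581, adjusted p = 1.5e-08 by edgeR). Negr1, an IgLON adhesion protein, had in chr3:156750001-156800000 1 insertion in each SP1 P10 animal against 106 to 148 IPM in GFAPCre, 11.6-fold higher (3.96 to 56.2, adjusted p = 2.64e-07 by edgeR). In Dpp10, an auxiliary subunit of potassium channels, chr1:124700001-124750000 had 1 SP1 P10 insertion and a GFAPCre level 28.7-fold higher (5.15 to 1134, adjusted p = 2.77e-07 by edgeR). In these 3 windows the SP1 P10 and SP1 P28 animals did not reach the Syn1Cre range.

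Among the 21 members without an SP1 P10 insertion were named windows of 4 further neuronal genes. GFAPCre was at least 4.07-fold higher in Opcml, an IgLON protein (chr9:27900001-27950000), and at least 4.02-fold higher in the metabotropic glutamate receptor gene Grm7 (chr6:111100001-111150000). It was at least 3.93-fold higher in the splicing regulator Rbfox1 (chr16:6200001-6250000) and at least 3.07-fold higher in Lrrc7, a postsynaptic scaffold (chr3:158400001-158450000). Their edgeR adjusted p-values lay between 9.37e-05 and 0.00122. The naming rule took the lowest differences in this same test, among other windows, so these p-values add no support.

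Among members with the largest ratios outside the regulator list were windows in Ctnnd2 (6.97), a catenin of dendrites, and Csmd3 (6.64), and near Dock10 (7.48), Tyrp1 (7.84) and Anxa1 (10.8 and 6.70). All rest on few SP1 insertions, 3 to 10 at P28 and 1 to 4 at P10. The Ctnnd2, Csmd3 and Dock10 windows were lower in SP1 P10 than in GFAPCre (edgeR adjusted p from 0.007 to 0.0135), each no longer so when some SP1 P10 animals were left out. Those near Tyrp1 and Anxa1 did not pass, though the Tyrp1 window (-1.86) and the nearer Anxa1 window (-1.76) did without the low-count filter. The nearer Anxa1 window also passed without GFAPCre animal 2, 3 or 6 (-1.55 to -1.49).

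Some of the most used members lay outside both lists. At chr12:50050001-50100000, 241 kb from the kinase gene Prkd1, SP1 P10 animals held 141, 160 and 182 IPM and SP1 P28 animals 172, 132, 124 and 128, against 306 to 423 in GFAPCre. The difference of SP1 P10 was -1.22 ± 0.26 (edgeR, adjusted p = 0.000362), a call lost when repeated positions were counted once (-0.58). At chr3:118450001-118500000, 62.1 kb from Dpyd, an enzyme of pyrimidine breakdown, SP1 P10 animals held 47.1, 22.8 and 107 IPM against 253 to 336 in GFAPCre (-2.42 ± 0.34, edgeR, adjusted p = 3.1e-07). BrokenHeart held 40.5 ± 19.8 (SD, n = 3) there, against 343 ± 1.41 (SD, n = 2) in C57bl6J.

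Among the 369 members tested, 1 was called higher in SP1 P10 than in GFAPCre, and the Maf member, described above, was not tested. At chr1:137650001-137700000, 363 kb from the leukocyte phosphatase gene Ptprc, SP1 P10 animals held 106, 137 and 85.9 IPM against 50.4 to 69.1 in GFAPCre (0.80 ± 0.30, edgeR, adjusted p = 0.0349). Syn1Cre animals held 94.8 to 113 and C57bl6J 136 and 120.5, and the SP1 P10 range held all of both. The call was lost without GFAPCre animal 2 or any 1 of the SP1 P10 animals (0.56 to 0.87), with DESeq2 (0.67) and without the low-count filter (0.49). In Zfp804a (chr2:82050001-82100000) SP1 P10 animals held 70.6, 103 and 96.6 IPM and GFAPCre 73.4 to 121, a difference that did not pass (-0.22 ± 0.30, edgeR, adjusted p = 0.611), while SP1 P28 animals held 18.8 to 49.6.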

How the data were processed

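Each deposited table lists insertions, and the authors gave 1 row per insertion with its position and read count; per the submitters' processing notes, Novoalign, Bowtie2 and mm10 were used, with versions and roles not given in the sources used here. Rows were counted in 50 kb windows and divided by the animal's rows on chromosomes 1 to 19, so per-million values are relative. Insertions per animal ranged from 86842 in SP1 P10 to 1505413 in GFAPCre, and intervals and floors cover counting error only. The members and lists were chosen with earlier results of these data known. SP1 P10 was compared with GFAPCre, Syn1CreNeg and C57bl6J by edgeR 4.0.16 (quasi-likelihood test, TMM, filterByExpr, Benjamini-Hochberg; R 4.3.3), with DESeq2 1.42.0, total scaling, no filter, distinct positions, thinning, a replicate block and each animal left out as alternatives. Tested on simulated data, the GFAPCre comparison recovered 13% of windows lowered 3-fold and 59% of those raised. Same-numbered animals did not deviate together (r from -0.081 to 0.099 over windows), so the numbers were not used as pairs. Windows were named by rule: the largest ratios, the most Syn1Cre insertions, those nearest the ratio of 3, those of the regulator list, and the lowest and highest differences in each test. Genes and promoters came from RefSeq tables. Some named windows are not reported here.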

Additional observations from a re-analysis of the deposited data

Results flagged for a closer look

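In 4 of 63 groups of values 1 animal lay far from the others of its group, and chance flags about 1 in 20 groups. Values are IPM, with the group's median in parentheses. SP1 P28 animal 1 was highest at chr12:50050001-50100000, near Prkd1, with 172 (129.5). GFAPCre animal 3 was lowest at chr13:82850001-82900000 with 15.4 (29.0) and highest at chr13:83450001-83500000 with 99.0 (79.0), both beside Mef2c. In Ctnnd2, at chr15:30900001-30950000, GFAPCre animal 5 was lowest with 28.3 (44.8).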

How the results depend on the processing

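The number of members was 371. It became 743 with the mean of the animals' per-million values (338 shared), 105 with TMM scaling, 120 with distinct positions, 103 with a minimum of 300 insertions and 92 with a ratio of at least 4. Leaving out 1 animal gave 210 to 1280. The median distance of 118 kb became 13.8 kb with every annotated gene. Members lower in SP1 P10 than in GFAPCre numbered 211, 157 to 232 with 1 animal left out, and 26 of 27 tested when animals were thinned to the shallowest. Against Syn1CreNeg they numbered 16, 14 to 24 with 1 animal left out, and 115 of 371 without the filter. Against C57bl6J they numbered 39, 288 of 371 without the filter, 13 of 13 with distinct positions and 40 to 114 with 1 animal left out. The cause of these changes was not tested, except that filters and thinning change how many members are tested.

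With the replicate block, 172, 16 and 39 members were lower in the 3 comparisons, although the numbers do not pair the animals. Against GFAPCre, the block turned the difference at chr13:82900001-82950000 from -0.02 to 0.01, total scaling to 0.03 and distinct positions to 0.50, with a range of -0.17 to 0.00 when 1 animal was left out. At chr13:82850001-82900000 leaving out 1 animal gave -0.83 to 0.18. In Myo3b, at chr2:70050001-70100000, the difference of 0.25 became -0.05 without the filter and -0.53 to 0.63 with 1 animal left out. Against Syn1CreNeg, the block turned Zfp804a from 0.43 to -0.03, and AI593442 (-0.34) ranged from -1.93 to 0.20 with 1 animal left out. None of these passed the threshold in the reversed setting. The AI593442 window did pass, in its main direction, with the block (-1.22, edgeR adjusted p = 0.0272) and without SP1 P10 animal 1 (-1.93, adjusted p = 0.0166). The SP1 P10 depth limits single windows, since 21 members held none and 174 held 1 to 3 there.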
